A study of Mus musculus with 4 samples.

Results

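Polycomb repressive complex 2 (PRC2) was followed in embryonic mouse cortex through 9 genes, its core subunits *Suz12*, *Ezh1*, *Ezh2*, *Eed*, *Rbbp4* and *Rbbp7* and its accessory subunits *Jarid2*, *Mtf2* and *Phf19*. They were found by gene symbol among the 23038 genes of the deposited expression tables, and all 9 were present. Their 45 alternative splicing events were found by gene identifier among 38240 events. *Suz12* drew attention to the complex because its steady-state level differed between the genotypes in these same samples, so its values are given as a description without a test. The other 8 genes were added because they belong to the complex.

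PRC2 places methyl groups on lysine 27 of histone H3, a mark of silenced genes. The enzyme is Ezh2 or its relative Ezh1, which works only when bound to Suz12, the scaffold, and to Eed, which reads the methylated histone tail and stimulates the enzyme. Rbbp4 and Rbbp7 are histone-binding proteins that PRC2 shares with other chromatin complexes, and Jarid2, Mtf2 and Phf19 help to bring the complex to its target genes. In the developing cortex PRC2 is known for keeping genes of other lineages silent and for setting the time at which progenitors change what they produce.

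RNA of the embryonic cortex at E14.5 was sequenced after poly-A selection from 2 control and 2 *Qk* cKO embryos. Control embryos, labelled wild type, carried *Qk* with loxP sites on both alleles (*Qk* fl/fl) and no Cre named in the paper, and *Qk* cKO embryos carried *Nestin*-Cre and *Qk* fl/fl. *Nestin*-Cre acts in neural progenitors and their progeny, so blood vessels, microglia and other non-neural cells of the cortex keep *Qk*. The embryos are described as independent littermates, and which samples share a litter is not given in the sources used here. *Qk* encodes an RNA-binding protein of the STAR family that controls splicing, and the comparison asks which RNAs differ when it is lost from the progenitors.

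Each sample held between 37942046 and 42994832 tags on genes, a tag being the unit that the authors' program Quantas counts. Tags on the junction of *Qk* exons 2 and 3, exon 2 being floxed, numbered 635 and 565 in the controls and 63 and 68 in *Qk* cKO. The junction of exons 3 and 4 held 574 and 439.4 tags in the controls and more, 897.5 and 830.3, in *Qk* cKO. Per 100 tags on the second junction, the first held 110.6 and 128.6 in the controls and 7.02 and 8.19 in *Qk* cKO. This *Qk* exon 2 ratio in *Qk* cKO stood at 6.40% of the control ratio. *Xist* and Y-linked genes showed that replicate 1 was female and replicate 2 male in both groups. Markers of radial glia and of neurons were all above a mean of 1 RPKM, a level scaled for the length of the gene and the depth of the sample, in these cortices. Markers of hypothalamus and diencephalon summed to 4.62 and 11.1 RPKM in the controls and to 2.66 and 1.52 RPKM in *Qk* cKO. All 7 genes of the list were lower in both *Qk* cKO samples, against 20.6% of all tested genes. The list was made with results of these data known, so this count is a description. The paper had already listed *Nr5a1*, *Six6*, *Pomc*, *Nkx2-2* and *Sox14* as changed.

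A pair of cassette exons matters for the splicing results, and both are shown here from the GENCODE M21 transcripts on GRCm38, the build named mm10. The *Suz12* exon is exon 4 of the annotated transcript with the longest coding sequence, at chr11:79999057-79999125 on the plus strand. It is 69 nt long, adds 23 codons without changing the frame, and is coding. The *Ezh2* exon is exon 14 of the transcript chosen in the same way, at chr6:47541845-47541970 on the minus strand. It is 126 nt long, which makes 42 codons, and encodes part of the cysteine-rich CXC region in front of the catalytic SET domain. Both are given 5′ to 3′ on the strand of the gene.
Suz12 exon 4: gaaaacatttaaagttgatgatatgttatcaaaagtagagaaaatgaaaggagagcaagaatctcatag
Ezh2 exon 14: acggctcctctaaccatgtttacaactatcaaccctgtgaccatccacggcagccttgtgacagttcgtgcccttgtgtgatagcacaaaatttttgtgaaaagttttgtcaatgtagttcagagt
Neither exon holds ACTAAC or ACTAAT, the hexamers that the Qk protein is known to bind in RNA. The introns beside these exons, where such sites can also lie, were not searched.

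The scaffold *Suz12* (chr11:79993106-80034123, plus strand) was higher in *Qk* cKO. Its level was 26.4 and 26.0 RPKM in the controls and 30.8 and 35.3 RPKM in *Qk* cKO. Both *Qk* cKO samples lay above both controls, and *Qk* cKO replicate 2 lay further above than replicate 1. The means were 26.2 ± 0.283 and 33.0 ± 3.16 RPKM (SD, n = 2), a rise of 25.9% on this scale. On tags scaled by the TMM method, the log2 fold change was 0.34 (SE 0.059), at percentile 98.4 of the 12743 genes with a mean of at least 1 RPKM. The call that chose *Suz12*, p below 0.01 and FDR below 0.1 in edgeR's quasi-likelihood test of this contrast, was not made with the filter on low counts that edgeR provides or when either control or *Qk* cKO replicate 2 was left out. Without *Qk* cKO replicate 2 the log2 fold change was 0.25. The paper's own edgeR list of changed transcripts, at the same limits, names neither *Suz12* nor any other member.

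Tags on single junctions of *Suz12* come from the same reads as its level and describe where along the transcript they lay. The junction of exons 3 and 4 held 31 and 20 tags in the controls and 40 and 47 in *Qk* cKO. The junction of exons 4 and 5 held 40 and 30 tags against 66 and 65. Both are junctions of the 69-nt exon, and each was higher in *Qk* cKO than in either control also per 1000000 gene tags. Further downstream, the junction of exons 13 and 14 held 6.52 and 6.48 tags per 1000000 gene tags in the controls and 7.51 and 7.62 in *Qk* cKO. Scaled in this way, the ratio of *Qk* cKO to control was 1.63 and 1.78 at the 2 junctions of exon 4, 1.37 at that of exons 12 and 13 and 1.16 at that of exons 13 and 14. The junction that skips exon 4 held 8 and 7 tags in the controls and 6 and 7 in *Qk* cKO, and the one that skips exon 13 held at most 1 tag in any sample.

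**Figure D1:**
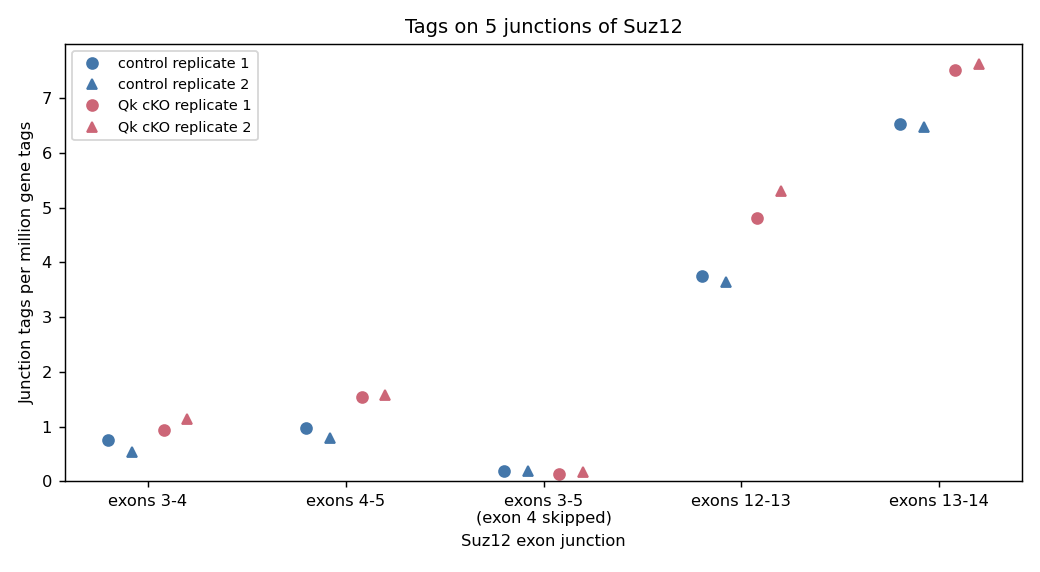
Tags on 5 *Suz12* junctions per 1000000 gene tags (vertical axis, from 0), by sample, with controls in blue, *Qk* cKO in red, circles for replicate 1 and triangles for replicate 2. Both *Qk* cKO samples lie above both controls at the 4 junctions that include exon 4 or exon 13, and at or under 0.170 at the junction that skips exon 4, where the controls reach 0.193.

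The catalytic subunit *Ezh2* (chr6:47530139-47595341, minus strand) was among the most abundant members. Its level was 117.9 and 112.4 RPKM in the controls and 127.2 and 129.0 RPKM in *Qk* cKO. The groups did not overlap, yet the difference did not pass the test across all genes. The log2 fold change was 0.17 (SE 0.072), with an FDR of 0.482 in edgeR's quasi-likelihood test. *Ezh1* (chr11:101191115-101226463, minus strand), the other catalytic subunit, which is known to prevail in cells that no longer divide, lay at 4.90 and 4.62 RPKM in the controls and 4.84 and 4.96 RPKM in *Qk* cKO. Its groups overlapped, and the log2 fold change was 0.05 with a 95% interval from -0.17 to 0.28. *Ezh2* thus stood at 24.1 and 24.3 times the *Ezh1* level per length in the controls and at 26.3 and 26.0 times in *Qk* cKO.

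*Eed* (chr7:89954654-89980983, minus strand) lay at 25.9 and 24.6 RPKM in the controls and at 26.9 and 28.3 RPKM in *Qk* cKO. The groups did not overlap, and the log2 fold change of 0.14 (SE 0.085) had an FDR of 0.698 by edgeR. In the same samples there were 1.02 and 1.06 *Suz12* RPKM for each *Eed* RPKM in the controls and 1.14 and 1.24 in *Qk* cKO. The histone-binding subunit *Rbbp4* (chr4:129307100-129335370, minus strand) lay at 121.8 and 114.2 RPKM in the controls and 122.4 and 115.8 RPKM in *Qk* cKO, so the groups overlapped almost entirely. Its log2 fold change was 0.03 with a 95% interval from -0.14 to 0.19.

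*Rbbp7* (chrX:162760402-162779092, plus strand), the X-linked relative of *Rbbp4*, varied more between embryos of one genotype. Its level was 88.6 and 74.3 RPKM in the controls and 84.4 and 94.1 RPKM in *Qk* cKO. The female was above the male among the controls and below it in *Qk* cKO. The log2 fold change was 0.14 (SE 0.072), with an FDR of 0.596 by edgeR. Of the *Rbbp7* transcript, 9.38% of all 50-nt stretches also occur in a transcript of another annotated gene, Gm6382, whereas no member other than *Rbbp4* and *Mtf2* shared any and those shared at most 0.872%.

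Of the accessory subunits, *Phf19* (chr2:34893757-34914026, minus strand), which binds H3 methylated at lysine 36, was the least abundant member. Its level was 1.55 and 1.57 RPKM in the controls and 1.92 and 1.88 RPKM in *Qk* cKO, from between 239 and 331 tags. The groups did not overlap. Its log2 fold change was 0.30 (SE 0.146), the closest in size to that of *Suz12*, and with fewer tags behind it the FDR by edgeR was 0.589. *Mtf2* (chr5:108065674-108109004, plus strand), a Polycomb-like protein of the same family, lay at 21.5 and 20.5 RPKM in the controls and 22.5 and 22.8 RPKM in *Qk* cKO. The log2 fold change was 0.13 (SE 0.059), with an FDR of 0.547 by edgeR.

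*Jarid2* (chr13:44729474-44921643, plus strand), which marks a second form of PRC2 without Polycomb-like proteins, was the one member with a negative estimate. It lay at 17.6 and 20.3 RPKM in the controls and 18.3 and 17.4 RPKM in *Qk* cKO. The groups overlapped, and the log2 fold change was -0.07 with a 95% interval from -0.21 to 0.06. Without control replicate 2 the estimate turned to 0.03.

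**Figure D2:**
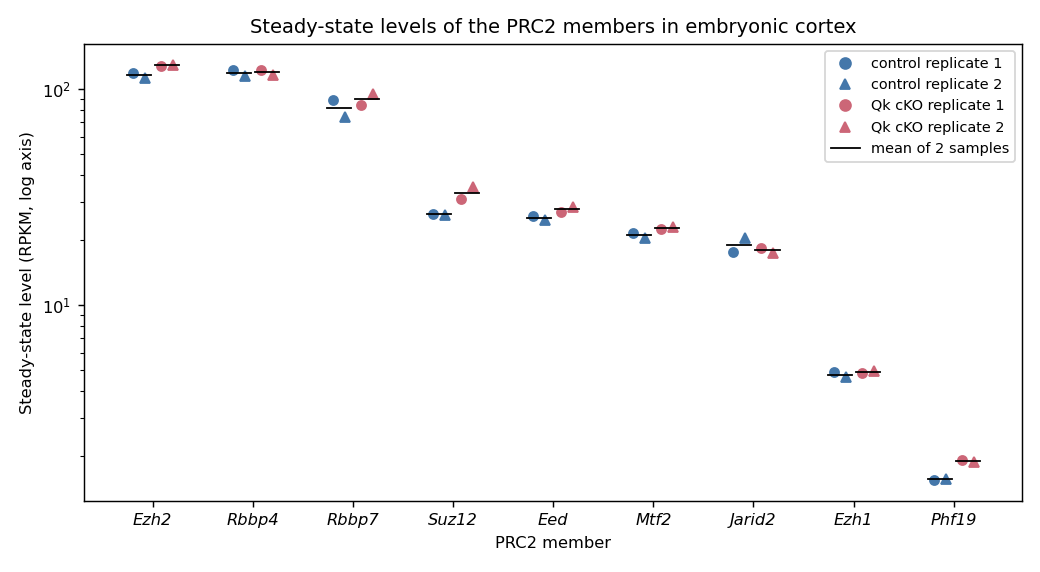
Steady-state levels of the 9 PRC2 members in RPKM (vertical log axis), by sample, with controls in blue, *Qk* cKO in red, circles for replicate 1, triangles for replicate 2 and black bars for the mean of the 2 samples. The levels run from 1.55 RPKM for *Phf19* to 129.0 RPKM for *Ezh2*, and the groups stand apart for *Suz12*, *Ezh2*, *Eed*, *Mtf2* and *Phf19*.

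Per length, the members kept a similar order in both genotypes. *Rbbp4* and *Ezh2* were highest and overlapped in the controls, and *Rbbp7* came next. *Suz12*, *Eed*, *Mtf2* and *Jarid2* followed between 17.4 and 35.3 RPKM. In the controls *Suz12* lay just above *Eed*, and *Jarid2* just below *Mtf2*, by less than the largest difference between replicates of these 4 genes. The lower *Suz12* sample was above the higher *Eed* sample in both genotypes. These samples were at 26.0 and 25.9 RPKM in the controls and at 30.8 and 28.3 RPKM in *Qk* cKO. *Ezh1* and *Phf19* were lowest, each clear of its neighbours.

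Without *Suz12*, 0 of the 8 members passed the thresholds in edgeR's quasi-likelihood test, against 0.584% of all 18834 tested genes. The count was also 0 with DESeq2, with edgeR's exact test and in every other setting tried. At an unadjusted p below 0.05 there were 2 of 8, *Ezh2* and *Mtf2*, against 8.76% of all tested genes. All 8 had a mean of at least 1 RPKM, and among such genes the share was 11.1%. Both *Qk* cKO samples lay above both controls in RPKM for 4 of the 8, against 16.3% of all tested genes. They lay below both for 0 of the 8, against 20.6%. Among genes with a mean of at least 1 RPKM these shares were 18.0% and 22.9%. With TMM-scaled tags *Ezh1* joined the 4 that lay above, which made 5 of 8 against 18.6% of all tested genes. The median log2 fold change of the 8 was 0.13, while that of the genes with a mean of at least 1 RPKM was 0.00. These 8 genes share the same 4 samples and are not replicates of each other.

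Markers of cell types were compared in the same fit. Of 8 markers of dividing cells, 8 had a positive estimate, against 50.5% of genes with a mean of at least 1 RPKM. In 4 of the 8, both *Qk* cKO samples lay above both controls, against 18.0% of such genes. The median log2 fold change of the 8 markers was 0.16. Their summed level was 661 and 566 RPKM in the controls and 688 and 670 RPKM in *Qk* cKO. *Ccna2*, a cyclin of S and G2 phase, passed the test with a log2 fold change of 0.26 (FDR 0.071 by edgeR). Of 8 radial glia markers, 2 were lower past the thresholds, *Fabp7* and *Slc1a3*, and 0 were higher. Of all tested genes, 0.584% were called in either direction. Both *Qk* cKO samples lay below both controls for 4 of the 8, against 22.9% of genes with a mean of at least 1 RPKM. They lay above both for 1 of the 8, against 18.0%. Of the 8, 3 had a positive estimate (*Pax6*, *Hes1* and *Nes*) and 5 a negative one (*Fabp7*, *Sox2*, *Slc1a3*, *Hes5* and *Vim*). The summed radial glia level was 1633 and 1512 RPKM in the controls and 1330 and 1267 RPKM in *Qk* cKO. Without *Fabp7* it was 644 and 612 RPKM against 627 and 600.0 RPKM. Most of this remainder was *Vim*, at 480.9 and 448.5 RPKM in the controls and 468.9 and 444.4 RPKM in *Qk* cKO. The 8 neuronal markers had 0 calls in either direction and a median log2 fold change of 0.06. Of 4 erythroid markers, 4 had a positive estimate, with a median of 0.41. Their summed level overlapped between groups, at 253.2 and 221.4 RPKM in the controls and 341.5 and 241.1 RPKM in *Qk* cKO. Of 5 markers of meninges, 4 had a positive and 1 a negative estimate, with a median of 0.34. Their sum overlapped too, at 72.1 and 67.4 RPKM in the controls and 61.4 and 91.5 RPKM in *Qk* cKO. Both *Qk* cKO samples lay above both controls for 1 of the 4 erythroid and 0 of the 5 meningeal markers, against 18.0% of genes with a mean of at least 1 RPKM. Both lists had 0 calls. The part of dividing cells in the levels of the PRC2 members was not tested. In RNA of whole tissue, more cells that express a gene and more of its RNA in each cell cannot be told apart.

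The 3 genes whose pattern over the 4 samples was most like that of *Suz12*, among 12742 others with a mean of at least 1 RPKM, were *Prps2*, *Pgm5* and *Foxo1*. Likeness was measured as the root mean square difference of log2 CPM, tags scaled by library size, after centring each gene on its own mean. *Prps2*, which encodes an enzyme of nucleotide synthesis, differed from *Suz12* by 0.0109. It lay at 3.68 and 3.66 RPKM in the controls and 4.30 and 5.03 RPKM in *Qk* cKO. *Pgm5* differed by 0.0127 and the transcription factor gene *Foxo1* by 0.0265. With 4 samples, this is a description of shape only.

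Other genes of the Polycomb system were compared in the same fit. Of 34 such genes, 0 passed the thresholds in edgeR's quasi-likelihood test, against 0.584% of all tested genes. At an unadjusted p below 0.05 there were 3 of 34, against 8.76% of all tested genes. Both *Qk* cKO samples lay above both controls for 8 and below both for 8, against 16.3% and 20.6% of all tested genes. Of the 34, 33 had a mean of at least 1 RPKM, and among all such genes the 3 shares were 11.1%, 18.0% and 22.9%. The median log2 fold change of the 34 was 0.03. DESeq2 and the exact test also gave 0 calls. Among the 5 further PRC2 accessory genes, *Phf1*, *Aebp2*, *Epop* (listed as E130012A19Rik), *Lcor* and *Lcorl*, the estimates ran from -0.12 to 0.14.

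PRC1, the complex that places ubiquitin on histone H2A and reads the PRC2 mark, was represented by 22 genes, 13 with a positive and 9 with a negative estimate. The 5 Polycomb genes with the smallest p all came from it. *Bmi1*, which supports self-renewal of neural stem cells, lay at 32.0 and 30.9 RPKM in the controls and 34.6 and 35.6 RPKM in *Qk* cKO, a log2 fold change of 0.17 (SE 0.054, FDR 0.259 by edgeR). *Cbx8*, a reader of the mark, lay at 8.61 and 10.3 RPKM against 7.75 and 7.61 RPKM.
The ubiquitin ligase gene *Ring1* was at 10.3 and 10.9 RPKM in the controls and 8.69 and 9.03 RPKM in *Qk* cKO. The groups did not overlap for any of these 3 genes, with *Bmi1* higher and *Cbx8* and *Ring1* lower in *Qk* cKO, and the FDR of *Ring1* was 0.535 by edgeR. *Cbx6*, another reader, and *Pcgf5*, a partner of the ligase, had estimates of -0.14 and 0.27 and the same FDR of 0.575 by edgeR. The demethylases that remove the mark included X-linked *Kdm6a*, at 12.9 and 9.07 RPKM in the controls and 14.7 and 11.1 RPKM in *Qk* cKO, with the female above the male in both groups, and the Y-linked *Uty*, which had no tags in the females. *Kdm6b* had an estimate of -0.07, and the 4 PR-DUB genes, which remove ubiquitin from histone H2A, ran from -0.05 to 0.09.

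**Figure D3:**
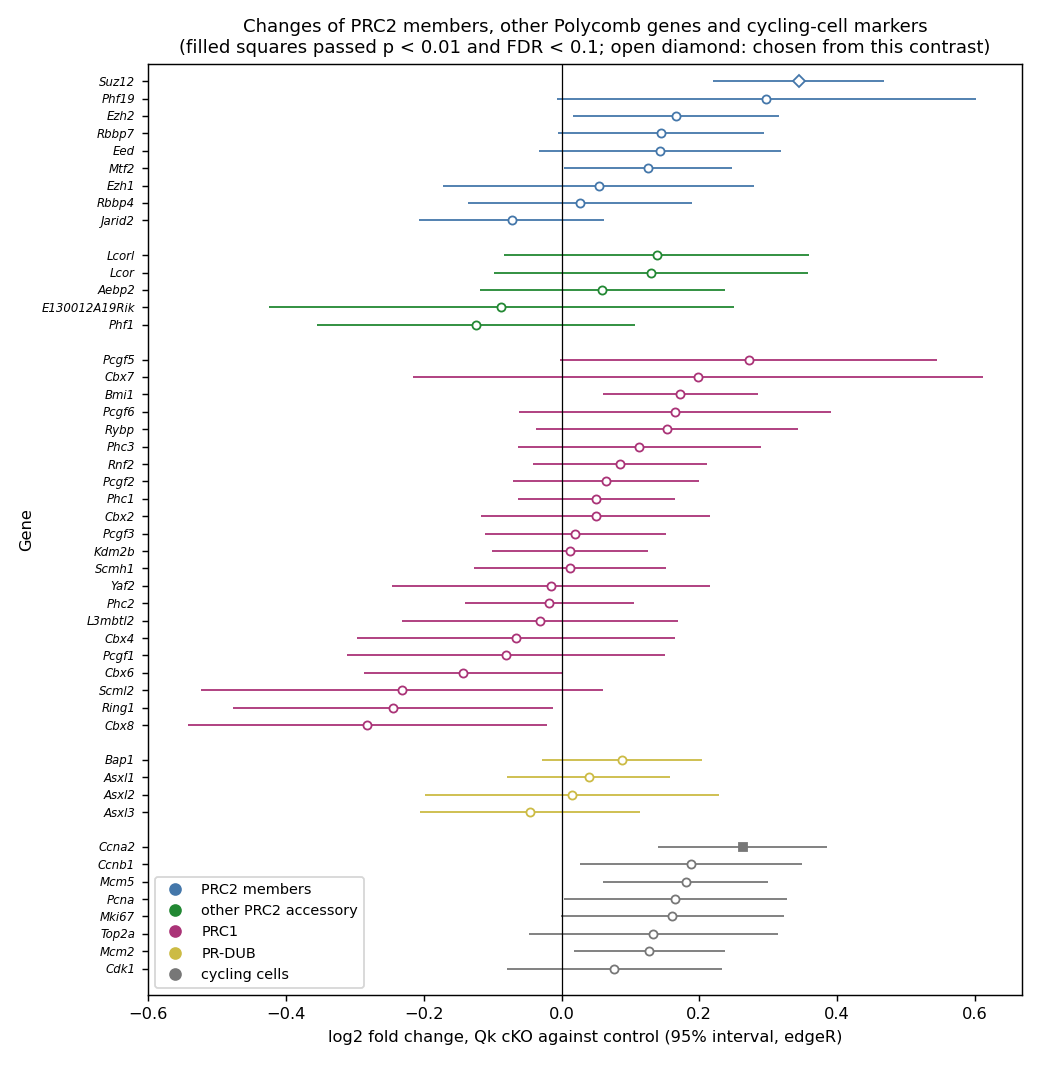
The log2 fold change of *Qk* cKO against control (horizontal axis) with its 95% interval from edgeR for the 9 PRC2 members, 5 other PRC2 accessory genes, 22 PRC1 genes, 4 PR-DUB genes and 8 markers of cycling cells, where filled squares passed the thresholds and the open diamond is *Suz12*, which was chosen from this contrast. *Ccna2* at 0.26 is the filled square, *Suz12* lies at 0.34, and the PRC1 genes spread to both sides of 0.

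Genes that PRC2 is known to keep silent in the cortex were low or undetected in both genotypes. Of 39 Hox genes and 13 other regulators, 31 had no tags in any sample and 0 reached a mean of 1 RPKM. The highest was *Sox17*, at a mean of 0.685 RPKM, which with between 86 and 104 tags was above the floor of detection. The summed level of the 52 genes was 1.46 and 1.58 RPKM in the controls and 1.63 and 1.29 RPKM in *Qk* cKO. Of the 21 genes tested, 0 passed the thresholds in edgeR's quasi-likelihood test, against 0.584% of all tested genes. An unadjusted p below 0.05 was found for 0 of the 21, against 8.76%. Many of the 21 held only a few tags over the 4 samples, so these counts cannot show that the genes were unchanged. *Hoxd3*, with 3 and 1 tags in the controls and 0 in both *Qk* cKO samples, had an unadjusted p of 0.18 in this test. Both *Qk* cKO samples lay above both controls for 2 of the 21, *Pax5* and *Pax7*, and below both for 3, *Hoxd3*, *Foxa2* and *Sox17*, against 16.3% and 20.6% of all tested genes. *Hoxd3* and *Foxa2* had at most 3 tags in any sample. *Pax5* rested on 6 and 12 tags in the controls and 24 and 15 in *Qk* cKO, with an FDR of 0.767 by edgeR.

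Splicing could be compared for 20 of the 45 events of the members. A coverage of at least 20 was required, the coverage being the smallest of the junction tags summed over an isoform or over a group. *Mtf2* contributed 14 of these events, *Ezh2* 4, *Suz12* 1 and *Eed* 1. The 4 events of *Ezh1*, 2 of *Rbbp4*, 3 of *Rbbp7*, 3 of *Jarid2* and 2 of *Phf19* all fell short of it. So did 5 of *Ezh2*, 4 of *Mtf2*, 1 of *Suz12* and 1 of *Eed*. Inclusion is not given for these 25 events, although tags on the junctions of the *Suz12* event, at exon 13, are given above. In Fisher's exact test on tags summed over replicates, 1 of the 20 events was called, against 7.50% of all 11500 tested events. The median absolute difference in inclusion was 0.042 for the 20 events and 0.026 for all tested events. In 7 of the 20, inclusion in both *Qk* cKO samples lay above both controls, against 19.1% of all tested events, and in 0 of the 20 below, against 18.8%. Of these 7 events, 6 belong to *Mtf2* and share exons and tags with each other.

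The event called was the 126-nt exon 14 of *Ezh2* shown above. Its inclusion, the share of junction tags that join the exon with the tags of its 2 junctions averaged, was 0.452 and 0.399 in the controls and 0.440 and 0.566 in *Qk* cKO. The groups overlapped, since *Qk* cKO replicate 1 lay between the controls and only replicate 2 lay above. The 95% Wilson interval of *Qk* cKO replicate 2, from 0.518 to 0.613, did not reach that of replicate 1, from 0.397 to 0.484. Such intervals cover counting error only. The difference in inclusion of control minus *Qk* cKO (Δ*I*) was -0.067 with an FDR of 0.034 by Fisher's exact test, which leaves out the variation between embryos. In edgeR's interaction test, which includes that variation, the FDR was 0.688, and 0.557% of all tested events were called. Without *Qk* cKO replicate 2, Δ*I* was -0.01.

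Tags on the skipping junction of this exon numbered 246 and 200 in the controls and 278 and 179 in *Qk* cKO, so a large share of *Ezh2* RNA lacked the exon in every embryo. The other cassette exon of *Ezh2* that was tested, 82 nt long, had an inclusion between 0.015 and 0.043 and a Δ*I* of -0.002. The 2 alternative 5′ splice sites of *Ezh2* had a Δ*I* of -0.031 and 0.002. None of these 3 was called.

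The 69-nt exon 4 of *Suz12* was included at 0.816 and 0.781 in the controls and at 0.898 and 0.889 in *Qk* cKO. Both *Qk* cKO samples lay above both controls. Their Wilson intervals reached from 0.788 to 0.953 and overlapped those of the controls, from 0.612 to 0.904. Δ*I* was -0.092, with only 28 tags on the skipping junction over all 4 samples. Because this exon belongs to the gene that was chosen from this contrast, the value is a description.

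In *Mtf2* the largest Δ*I* belonged to a 202-nt exon, at chr5:108069162-108069363, with no annotated coding sequence in it. Its inclusion, measured against the junction from an exon upstream to the next 148-nt exon, was 0.625 and 0.561 in the controls and 0.731 and 0.687 in *Qk* cKO. The groups did not overlap, and Δ*I* was -0.120 with an FDR of 0.222 by Fisher's exact test and 0.623 by edgeR's interaction test. This event had a coverage of 75.0. Measured against the junction that skips both exons, with a coverage of 240, the same 202-nt exon had overlapping groups. There Δ*I* was -0.043, with an FDR of 0.79 by Fisher's exact test. The other 13 *Mtf2* events used the same upstream exons, with Δ*I* between -0.065 and 0.004, and none was called. The *Eed* event, an alternative 5′ splice site, was at 0.877 and 0.824 in the controls and 0.910 and 0.863 in *Qk* cKO. Its groups overlapped, and Δ*I* was -0.030.

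**Figure D4:**
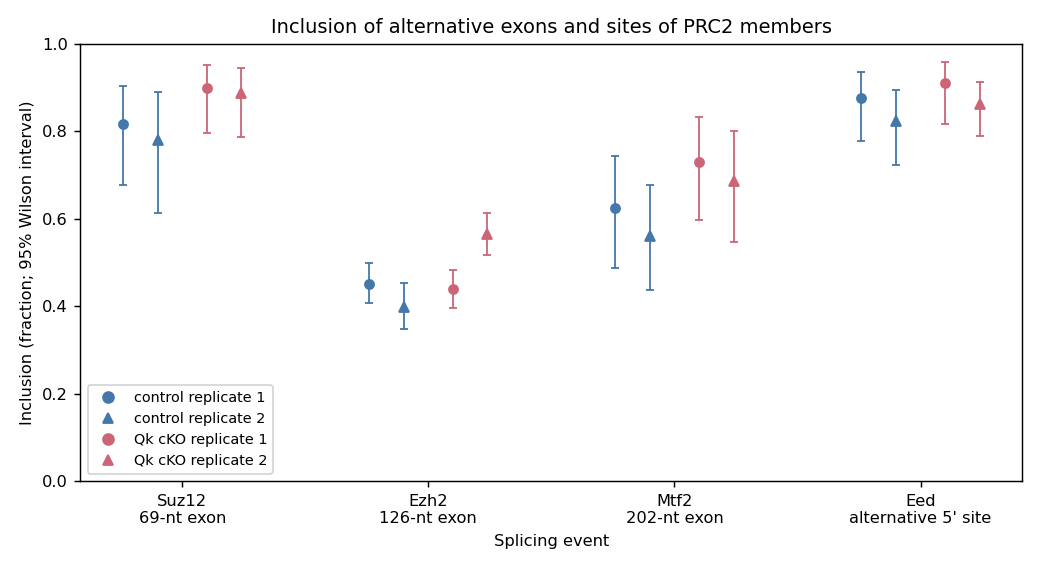
Inclusion (vertical axis, 0 to 1) of one event each of *Suz12*, *Ezh2*, *Mtf2* and *Eed*, by sample, with controls in blue, *Qk* cKO in red, circles for replicate 1, triangles for replicate 2 and bars for the 95% Wilson interval of the tags. For *Ezh2* only *Qk* cKO replicate 2, at 0.566, stands apart, while for *Suz12* and *Mtf2* both *Qk* cKO samples lie above both controls with overlapping intervals.

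The 3′ untranslated regions of the members were searched on the sense strand for ACTAAC and ACTAAT, in the transcript with the longest coding sequence of each gene. *Rbbp4* held 1 match, 531 nt after the stop codon, shown with the hexamer in capitals.
Rbbp4 site: ttactctccatgACTAACtgtgtaagtgct
The other 8 members held 0 matches. Over all 20619 genes, 29.3% had at least 1 match. Among the 2734 genes whose region was about as long as the 1933 nt of *Suz12*, 48.0% had one. A match is only a stretch of letters, and introns were not searched.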

How the data were processed

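Alignment to mm10 and to known junctions was done by the authors with OLego, and quantification with Quantas. For each gene the deposited values are estimated counts of tags, some of them fractional, and RPKM. For each splicing event, of 6 types, they are estimated counts of isoform and junction tags. The members, gene lists and tests were chosen with earlier results of these data known. All 9 members were named. Events were named if called or if they had the largest Δ*I* of a member, and other Polycomb genes if among the 5 smallest p. *Foxa2*, *Hoxd3*, *Pax5*, *Pax7* and *Sox17* were named after their values were seen.

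Tags were rounded and compared by edgeR 4.0.16 (quasi-likelihood test, TMM, R 4.3.3) over the 18834 genes with at least 1 tag, with Benjamini-Hochberg adjustment over all of them. Isoform tags were summed over replicates for a two-sided Fisher's exact test, adjusted within each event type. Calls required p below 0.01 and FDR below 0.1, the limits the study used. Alternatives were DESeq2 1.42.0, edgeR's exact test, upper-quartile scaling, filterByExpr, no filter, junction tags only, a coverage of 10 or 50, adjustment over all event types, edgeR's interaction test, a replicate block and leaving out each sample. Scripts were tested on simulated data. Sequences and positions come from GENCODE M21. The paper gives 2 embryos per group in one place and 3 in another, and the 4 labelled samples were used.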

Additional observations from a re-analysis of the deposited data

How the results depend on the processing

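The number of members past the thresholds was 0 in every setting tried apart from *Suz12*, which was chosen from this contrast. With *Suz12* it was 1, 0 with filterByExpr, and from 0 to 1 when single samples were left out, with a *Suz12* log2 fold change between 0.25 and 0.43. The lost calls were those without control replicate 1, control replicate 2 or *Qk* cKO replicate 2. With 1 sample in a group, that sample was assumed to vary like the other group. The count for other Polycomb genes and targets was 0 and ran from 0 to 2 when samples were left out, the 2 being the sex-linked *Kdm6a* and *Uty* without *Qk* cKO replicate 2, which leaves 1 female embryo in that group. The count of member events was 1 and was 0 by edgeR's interaction test. The estimate of *Rbbp4* turned negative when samples were left out (-0.028 to 0.076), and that of *Jarid2* turned positive (-0.169 to 0.0277). Δ*I* of the *Ezh2* exon ran from -0.136 to -0.01. The *Qk* exon 2 ratio ran from 5.90% to 6.92% of control.

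Whether the replicate numbers pair littermates is not given, and the main tests treated the embryos as unpaired. The deviations of same-numbered samples correlated at 0.384 over all genes and at -0.072 over autosomal genes, and samples with the same number were of the same sex. With the replicate block, 192 genes in place of 110 and 903 events in place of 862 were called. Among them were 1 member (*Suz12*), 1 member event and 0 other Polycomb genes and targets. The *Qk* exon 2 ratio was then at 6.36% of control. Over all genes, 100 were called with upper-quartile scaling, 81 by DESeq2, 57 by the exact test, 72 with no filter and 11 with filterByExpr. When samples were left out this count ran from 0 to 428. With 2 embryos per group, small differences in the members cannot be told from variation between embryos.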
